A study of Homo sapiens with 4 samples.

Results

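The genes of cholesterol and fatty acid synthesis that answer to the sterol regulatory element binding proteins were followed in naive NB4 cells and in an arsenic trioxide (ATO) resistant clone of the same line. The set was defined by name and held 34 genes, of which 33 had a probe on the array, with 56 probes among 41000. No probe carried the name of ACLY. The set was drawn up because many of these genes differed between the 2 naive flasks, so the difference between the naive flasks is given as a description and is not tested. On each of the 4 arrays all 56 probes cleared the background limit and none was saturated, so every member with a probe entered the comparison. In short, transcripts of the pathway were mostly highest in naive flask 1 and lowest in naive flask 2. The resistant flasks lay close together and mostly between the naive flasks, and no member passed the test between the lines. The naive gap that chose the set is part of the spread in that test. A wide naive gap also makes a place between the naive flasks more likely.

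NB4 is an established human cell line of acute promyelocytic leukaemia, a leukaemia treated with ATO. The naive group was NB4 itself. The resistant group was a single clone, NB4-VM-AsR1 in the labels, also spelled NB4-VM-As-R1 there and NB4-EV-AsR1 in the methods; that these names mean the same clone is an assumption. The culture medium of both lines was RPMI with 10% FBS, ATO had been left off the resistant clone for a week, and no flask is described as treated at harvest. RNA of 2 flasks of each line was hybridised to 4 one-colour Agilent arrays on 1 slide, so p-values measure the spread between flasks of 1 line and 1 clone. The naive arrays took the first places on the slide and the resistant arrays the last, so that place and line cannot be told apart. Levels below are log2 processed signals from which the 75th percentile of the array was subtracted, and they can be compared between flasks for a probe but not between probes. In RNA of bulk cultures, fewer cells of a kind and less RNA per cell cannot be told apart.

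The labelled cell type was checked on its markers. Of 7 promyelocyte markers, 6 were well above background on all 4 arrays. MPO, the myeloperoxidase of promyelocyte granules, read 5.96 and 6.20 in the naive flasks and 5.98 and 6.29 in the resistant flasks, but its probe was saturated on all 4 arrays, so that these values are capped. PRTN3, a granule protease, read 3.16 in naive 1, 0.80 in naive 2 and 4.43 and 4.32 in the resistant flasks. CTSG read 5.68 and 4.89 in the naive flasks and 5.89 and 6.25 in the resistant flasks. CD33 read 2.84, 3.16, 2.63 and 2.80 in the same order, and CEBPE read 3.01, 3.29, 2.46 and 2.59. CD33 and CEBPE were thus lower in both resistant flasks than in either naive flask, and neither was called. AZU1 and ELANE were called higher in the resistant line, with log2 differences of 1.17 and 2.49. ELANE was well above background on 3 of the 4 arrays, in naive 1 but not in naive 2. The size of its difference is therefore approximate. Of the stromal markers, none of 4 was above background on all arrays and 3 were above it on none. The B cell marker MS4A1 and the macrophage marker CD163 were above background on no array. CD3D, a chain of the T cell receptor complex, read 0.70 and 1.16 in the naive flasks and was not well above background in either resistant flask, where it was called lower, while its partner CD3E read -4.34, -4.05, -4.24 and -4.18. The log2 of the summed signal of the 3 T cell markers was 0.77 and 1.22 in the naive flasks and -3.19 and -2.82 in the resistant flasks, and the CD3D probe had the highest signal of the list in the naive flasks. The T cell marker CD2 ran against that sum, at -5.11 and -4.90 in the naive flasks and -4.29 and -3.67 in the resistant flasks. The summed level of the 3 monocyte markers was 1.53, 1.74, 2.72 and 2.92, and the CSF1R probe had the highest signal. The monocyte marker CD14 ran against this sum, at -3.24, -3.18, -3.66 and -3.77 in the same order. The summed level of the 7 promyelocyte markers lay between 6.96 in naive 2 and 7.56 in resistant 2; its largest terms were MPO, saturated on all 4 arrays, and CTSG, saturated on 2, so it says little about evenness. That of the 3 B cell markers was 0.45, 0.12, 0.58 and 0.67, with the highest signal from the CD79A probe, and that of the 4 stromal markers lay between -5.20 and -4.88. The part of these marker differences in the results below was not tested.

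Cells make cholesterol from acetyl-CoA through the mevalonate pathway, which leads by way of squalene and lanosterol to the final sterol. When sterol in the endoplasmic reticulum is low, the protein SCAP carries the membrane-bound factors SREBF1 and SREBF2 to the Golgi, where proteases release their active ends, and these enter the nucleus and switch on genes of sterol synthesis and of fatty acid synthesis and desaturation. When sterol is high, the INSIG proteins hold SCAP back. INSIG1 is itself a target, so its transcript is widely read as a gauge of the activity of the system.

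Across the set the flasks fell into an order. The median level of the 33 genes was 2.57 in naive 1, 1.65 in naive 2, 2.14 in resistant 1 and 2.03 in resistant 2. Naive 1 was above naive 2 for 30 of the 33 genes, against 47.6% of all named genes tested, and the median difference between them was 1.02 on the log2 scale, against -0.03 over all genes. At least 2-fold higher in naive 1 were 17 members (3.83% of all genes), and at least 4-fold higher were 8 (0.351% of all genes). None was at least 2-fold lower in naive 1 (6.43% of all genes). Since this difference chose the set, these counts only describe it. The 2-fold limit cut through a continuous range: just outside it lay EBP at 0.93 and LSS at 0.99, and just inside FASN at 1.02 and FDFT1 at 1.14.

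The resistant flasks did not show this spread. Their median difference was -0.05, its median size was 0.15 against 0.16 over all genes, and no member was 2-fold apart between them (1.69% of all genes). The median difference was larger with normexp background correction, at -0.21, and with scale normalisation, at -0.42. The widest gaps were 0.79 for FASN and 0.67 for SC4MOL. Both resistant flasks lay between the naive flasks for 21 of the 33 genes (19.5% of all genes). Both lay above naive 2 for 28 genes (42.8% of all genes) and below naive 1 for 26 (43.5% of all genes). These counts share the naive values that chose the set. For the 17 genes at least 2-fold apart in the naive line, the resistant mean stood at a median of 64.0% of the way from naive 2 up to naive 1, from -82.8% for FADS1 to 90.4% for HMGCS1.

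**Figure D1:**
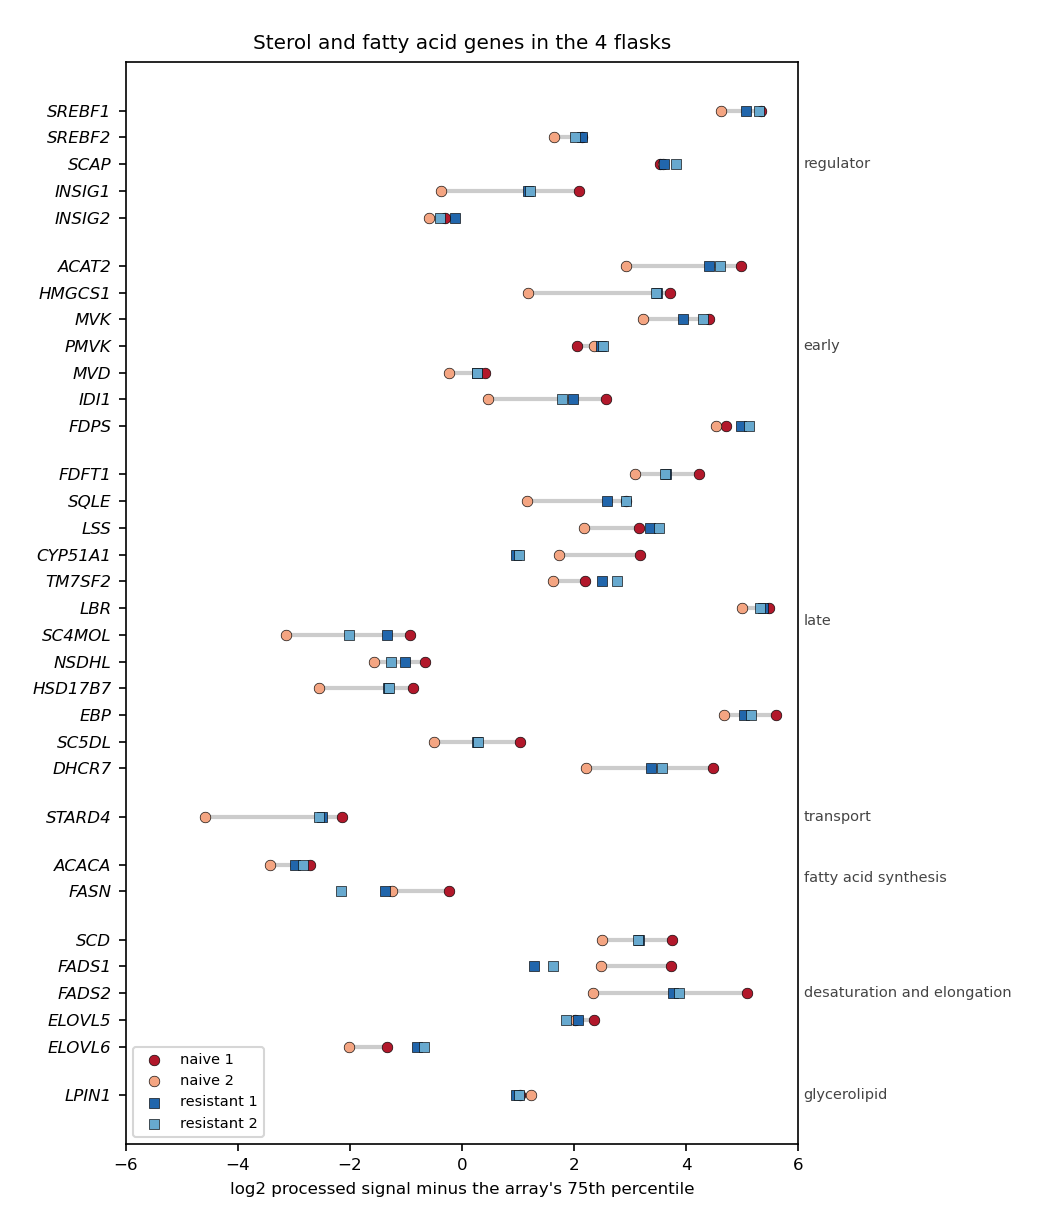
Level of each of the 33 genes in each flask, as log2 processed signal minus the array's 75th percentile on the horizontal axis; circles are naive flasks, squares are resistant flasks, and a grey bar joins the naive flasks. For 21 genes both squares fall within the grey bar, while for CYP51A1, FADS1 and FASN both fall to its left and for ELOVL6 and TM7SF2 both fall to its right.

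Proximal promoters of the members were read in RefSeq (GRCh38.p14), from 250 bases before to 50 bases after the start of each gene. A promoter was matched for 29 of the 33 genes; none was matched for ACAT2, SQLE, FDFT1 and FASN. The letters CACNCCAC, a core of the sterol regulatory element that SREBF1 and SREBF2 bind, stood on either strand in 4 of 29 member promoters (13.8%) and in 5.74% of all 27305 promoters. The longer form TCACNCCAC, which contains the core, stood in that of SREBF2 alone among the members and in 1.15% of all promoters. CCAAT, the letters bound by the partner factor NF-Y, stood in 17 member promoters (58.6%) and in 35.7% of all. GGGCGG, the letters bound by SP1, stood in 25 (86.2%) and in 44.6% of all. The 27305 promoters were not filtered for expression or base composition, while every member with a probe was above background. The shares are therefore not a matched comparison. A match is a run of letters and not a measured binding site, and elements that differ in a letter or lie outside the window are not found this way.

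The stretches of SREBF2, INSIG1 and SCD are shown because they hold the core before the start of the gene, and that of HMGCS1 because this sterol enzyme had a wide naive difference on both of its probes and holds a pair of CCAAT boxes without the core. Each is written 5′ to 3′ on the strand of its gene. Capitals mark the core and CCAAT; where a match lies on the opposite strand, its reverse complement is what is seen, such as ATTGG for CCAAT. In GRCh38.p14 they lie on the plus strand at chr22:41832965-41833011 for SREBF2, chr7:155297662-155297720 for INSIG1 and chr10:100347111-100347134 for SCD, and on the minus strand at chr5:43313500-43313575 for HMGCS1. The core began 132 bases before the start in SREBF2, 208 bases in INSIG1 and 114 bases in SCD. The fourth promoter with the core, that of SC5DL, holds it after the start and is not shown.
SREBF2: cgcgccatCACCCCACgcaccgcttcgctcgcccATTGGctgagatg
INSIG1: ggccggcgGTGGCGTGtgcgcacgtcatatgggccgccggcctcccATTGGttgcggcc
SCD: gaggccggGTGGTGTGgtgtcggt
HMGCS1: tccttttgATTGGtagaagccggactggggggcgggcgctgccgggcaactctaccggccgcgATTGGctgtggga

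Among the 5 regulators, the feedback target INSIG1 was much farther apart between the naive flasks than the factors themselves. INSIG1 (probe at chr7:155100071-155100130, hg19) read 2.08 in naive 1, -0.38 in naive 2 and 1.17 and 1.22 in the resistant flasks. Naive 1 was thus 5.52-fold above naive 2, and the resistant mean was 2.98-fold above naive 2 and 1.85-fold below naive 1. SREBF1 read 5.34, 4.62, 5.07 and 5.30 in the same order, and SREBF2 read 2.15, 1.65, 2.14 and 2.03. For both factors naive 2 was the low flask, by 0.72 and 0.50 from naive 1. INSIG2, the paralogue of INSIG1, read -0.31, -0.59, -0.13 and -0.39, and its probe of lower signal had a larger gap of 0.97 between the naive flasks. SCAP, the escort protein, read 3.53 and 3.59 in the naive flasks and 3.61 and 3.83 in the resistant flasks, a narrow range in which the lines did not overlap. The fitted difference of SCAP was 0.16 (SE 0.23, adjusted p = 0.748 by limma).

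The 7 genes of the early pathway, from acetyl-CoA to farnesyl diphosphate, were split into 4 with a naive gap of at least 2-fold and 3 with a smaller one. HMGCS1, which makes HMG-CoA, read 3.72 in naive 1, 1.19 in naive 2 and 3.49 and 3.46 in the resistant flasks, so that both resistant flasks stood near naive 1. Its resistant mean was 4.89-fold above naive 2, and its second probe had a naive difference of 3.24. ACAT2, which joins acetyl-CoA units at the head of the pathway, read 4.99, 2.92, 4.40 and 4.61, and IDI1, which isomerises isopentenyl diphosphate, read 2.57, 0.47, 1.98 and 1.79. MVK, mevalonate kinase, read 4.41, 3.23, 3.95 and 4.30. In each of these 4 genes naive 2 was the lowest flask and naive 1 the highest. The kinase PMVK read 2.06, 2.35, 2.48 and 2.52 and the decarboxylase MVD read 0.41, -0.23, 0.28 and 0.26. FDPS, the farnesyl diphosphate synthase, read 4.72, 4.53, 4.98 and 5.13. Both resistant flasks of PMVK and FDPS lay above both naive flasks. Their fitted differences from the naive mean were 0.29 and 0.43 and did not pass the test (adjusted p = 0.551 and 0.381 by limma).

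All 12 genes of the late pathway, from squalene to cholesterol, were higher in naive 1 than in naive 2, and for 9 of them both resistant flasks lay between. DHCR7, which carries out the final reduction to cholesterol, read 4.48, 2.22, 3.37 and 3.58, a 4.78-fold gap between the naive flasks. SC4MOL, the C4 sterol methyl oxidase now named MSMO1, read -0.94, -3.14, -1.35 and -2.02. SQLE, the squalene epoxidase, read 2.94, 1.16, 2.59 and 2.92, so that naive 1 was only 1.13-fold above the resistant mean. HSD17B7, a keto-sterol reductase, read -0.88, -2.55, -1.32 and -1.30, and SC5DL, the sterol C5 desaturase now named SC5D, read 1.03, -0.49, 0.27 and 0.28. Those 2 genes had resistant flasks within 0.02 of each other. FDFT1, the squalene synthase, read 4.23, 3.09, 3.64 and 3.63. Of these 9 genes, those with a naive gap below 2-fold were EBP, NSDHL and LBR. EBP, a sterol isomerase, had a naive difference of 0.93, NSDHL, a C4 decarboxylase, 0.90, and LBR, a sterol reductase of the nuclear envelope, 0.48.

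The remaining 3 late genes had resistant flasks outside the naive range. CYP51A1, the lanosterol demethylase, read 3.17 in naive 1, 1.74 in naive 2 and 0.97 and 1.03 in the resistant flasks. It was thus higher in naive 1 than in naive 2, but its resistant mean was below each naive flask, with a difference of -0.74 from naive 2 and of -2.18 from naive 1. The fitted difference from the naive mean, -1.46 (SE 0.49), did not pass the test (adjusted p = 0.202 by limma). Its second probe gave -1.75 (adjusted p = 0.220 by limma), also without overlap. LSS, the lanosterol synthase one step before it, read 3.16, 2.17, 3.35 and 3.51, and TM7SF2, the sterol C14 reductase one step after it, read 2.20, 1.62, 2.50 and 2.76. Both were above both naive flasks, with fitted differences of 0.76 (SE 0.38, adjusted p = 0.354 by limma) and 0.72 (SE 0.29, adjusted p = 0.270 by limma). Of 4 probes for LSS, the pair of higher signal had no overlap between the lines and the pair of lower signal did overlap, as did the second probe of TM7SF2.

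STARD4, a carrier of cholesterol between membranes and the only transport protein in the set, read -2.15 in naive 1, -4.59 in naive 2 and -2.50 and -2.56 in the resistant flasks. Its naive gap was 5.43-fold, and the resistant mean was 4.17-fold above naive 2.

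**Figure D2:**
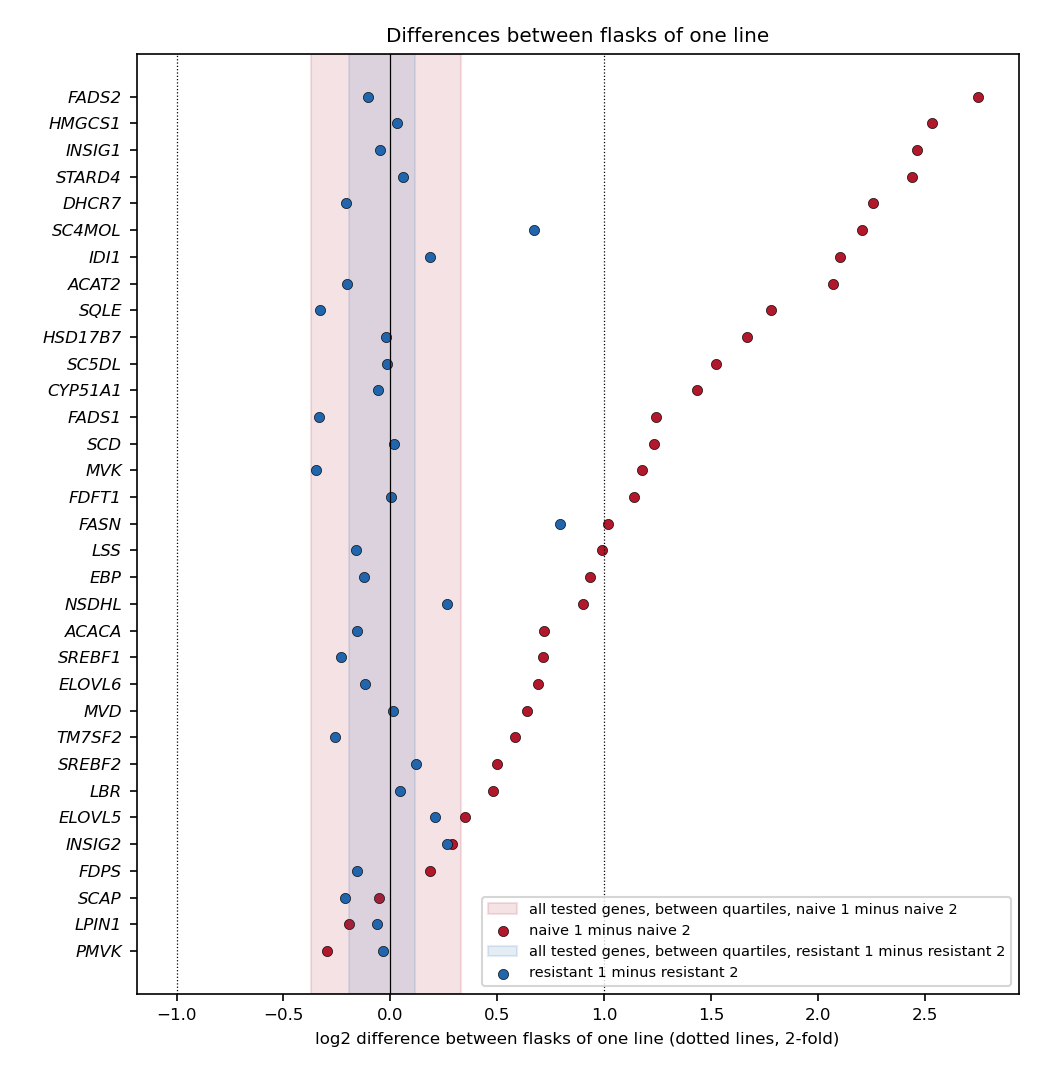
Log2 difference between the flasks of one line for each of the 33 genes, naive 1 minus naive 2 in red and resistant 1 minus resistant 2 in blue; bands show the range between the quartiles of all named genes tested and dotted lines mark 2-fold. The red points run from -0.29 to 2.75 with a median of 1.02, and the blue points run from -0.35 to 0.79.

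Both genes of fatty acid synthesis and all 5 of desaturation and elongation were higher in naive 1 than in naive 2, and none of the 7 passed the test between the lines. ACACA, the acetyl-CoA carboxylase that commits carbon to fatty acids, read -2.71, -3.43, -2.99 and -2.83 in naive 1, naive 2, resistant 1 and resistant 2. Its second probe had a wider naive difference of 2.19, again with both resistant flasks between. FASN, the fatty acid synthase, read -0.23 in naive 1, -1.25 in naive 2 and -1.37 and -2.17 in the resistant flasks, so that both resistant flasks lay below both naive flasks. The fitted difference of FASN was -1.03 (SE 0.45, adjusted p = 0.304 by limma). It was -1.43 without resistant 1 and -0.63 without resistant 2. LPIN1, a phosphatidate phosphatase of glycerolipid synthesis, read 1.04, 1.23, 0.96 and 1.02, and it was one of the 3 genes with naive 1 not above naive 2, beside SCAP and PMVK.

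The neighbouring desaturase genes FADS1 and FADS2 stood at different places against the naive flasks. FADS2, the delta-6 desaturase (probe at chr11:61634754-61634813, hg19), read 5.09 in naive 1, 2.34 in naive 2 and 3.77 and 3.88 in the resistant flasks. With 1 probe per gene, that of highest mean, its naive gap of 6.73-fold was the largest of the set and ranked 9 among all named genes in the direction of naive 1, while second probes of HMGCS1 and SCD had larger gaps. FADS1, the delta-5 desaturase (probe at chr11:61569572-61569631, hg19), read 3.73 in naive 1, 2.49 in naive 2 and 1.29 and 1.63 in the resistant flasks. Both genes were thus higher in naive 1, but FADS1 was below both naive flasks in the resistant clone while FADS2 lay midway. For FADS1 the fitted difference was -1.65 (SE 0.45, adjusted p = 0.131 by limma), and the second probe gave -1.86 (adjusted p = 0.149 by limma). For FADS2 it was 0.11 (SE 0.87, adjusted p = 0.962 by limma), while its probe of lower signal gave -0.74. The difference between FADS1 and FADS2 in their response was not tested.

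The other genes of desaturation and elongation were SCD, ELOVL5 and ELOVL6. SCD, which puts the first double bond into stearate, read 3.74, 2.51, 3.16 and 3.14 on its probe of highest signal, with both resistant flasks midway. That probe and another of its 4 are placed on chromosome 17 in hg19 rather than on chromosome 10, where the gene lies, and the probes of the gene disagreed in size more than those of any other member, by 2.21 in the naive difference. All 4 had naive 1 above naive 2. On the pair of probes placed on chromosome 10 the naive differences were 0.92 and 3.13. The probe with 0.92 is annotated on the minus strand, and that with 3.13 on the plus strand, which is the strand of the gene. ELOVL5, an elongase of polyunsaturated fatty acids, read 2.36, 2.01, 2.07 and 1.86, with an overlap between the lines. On its second probe both resistant flasks lay below both naive flasks, with a fitted difference of -0.70 (adjusted p = 0.223 by limma). ELOVL6, an elongase of palmitate, read -1.34 in naive 1, -2.03 in naive 2 and -0.80 and -0.68 in the resistant flasks, above both naive flasks. Its fitted difference was 0.94 (SE 0.30, adjusted p = 0.185 by limma), and that of its second probe was 1.11 (adjusted p = 0.0627 by limma). That second probe was the exception among the 18 genes with several probes, in that its naive flasks ran the other way, by -0.22.

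The comparison of the lines asked whether the resistant clone differs from naive NB4 in these genes. Of the 33 genes 0 were called by limma at an adjusted p below 0.05 and at least 2-fold (6.29% of all genes, 2.96% higher and 3.33% lower in the resistant line), and 0 of the 56 probes (5.27% of all probes). At an unadjusted p below 0.05, limma picked 3 of the 33 genes (21.1% of all genes), which were CYP51A1, FADS1 and ELOVL6, and the methods' t-test picked 0 (17.7% of all genes). With 2 flasks per line an exact permutation test of a single gene cannot go below 0.333, so any call depends on the variance that limma shares among probes. The median difference of the members was 0.19, against 0.00 over all genes. It was 0.34 with scale normalisation (0.12 over all genes) and -0.18 on the spike-in scale (-0.36 over all genes). The lines did not overlap for 10 genes (57.8% of all genes), namely 6 higher in the resistant line (28.5% of all genes) and 4 lower (29.1% of all genes). The 6 higher were SCAP and PMVK, whose differences changed sign on the spike-in scale, and FDPS, LSS, TM7SF2 and ELOVL6. On that scale FDPS fell to 0.07, LSS to 0.40, TM7SF2 to 0.36 and ELOVL6 to 0.58. FDPS was 0.19 with normexp, and LSS was 0.32 when the probes of a gene were averaged. The 4 lower were CYP51A1, FASN, FADS1 and LPIN1, at -1.82, -1.39, -2.01 and -0.51 on the spike-in scale. The standard error tracked the naive gap: it was 0.87 for FADS2 and 0.81 for HMGCS1, and 0.23 for SCAP and FDPS. That gap chose the set and is part of the spread in the test. A wide naive range also makes an overlap of the lines more likely. The shares of members called, picked or without overlap are therefore not comparable with those of all genes and only describe the set.

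The values differed with the naive flask that the clone was set against. Since the difference between these flasks chose the set, the counts against a single naive flask are a description and support nothing further. Against naive 2 alone the members' median was 0.56, and the resistant mean was at least 2-fold higher for 13 genes (6.90% of all genes). Against naive 1 alone the median was -0.38, and the resistant mean was at least 2-fold lower for 5 genes (7.50% of all genes). When limma was run without naive 1, 14 members were called (14.2% of all genes), 13 of them higher in the resistant line (6.78% of all genes). Without naive 2, 5 were called (15.7% of all genes), all lower (7.12% of all genes). In these fits the lone naive flask is assumed to vary like the resistant flasks. FADS1 was called lower in both fits, with a difference of -1.03 without naive 1 (adjusted p = 0.0303 by limma) and of -2.27 without naive 2 (adjusted p = 0.00139 by limma). DHCR7 and FADS2 were called in both with opposite directions. CYP51A1 and FASN were lower than each naive flask but were called without naive 2 only, and LSS, TM7SF2 and ELOVL6 were higher than each but were called without naive 1 only.

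**Figure D3:**
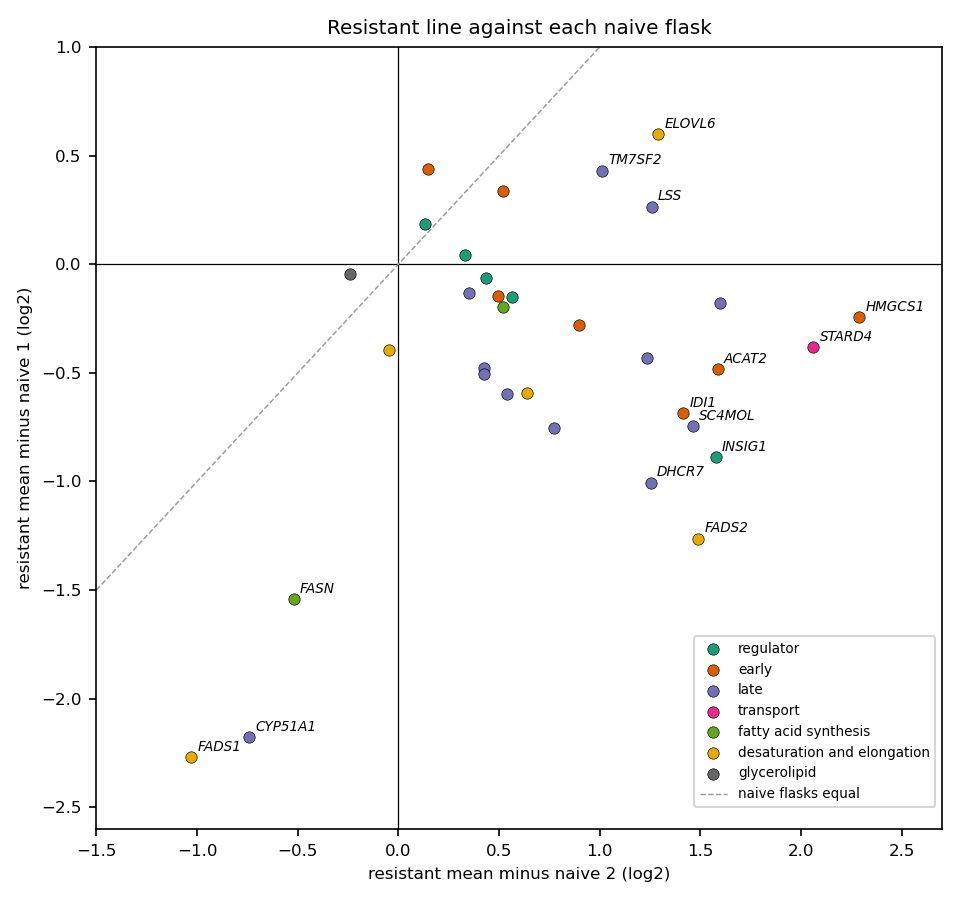
Resistant mean minus naive 2 on the horizontal axis and resistant mean minus naive 1 on the vertical axis, both as log2 differences, for the 33 genes coloured by role; the dashed line is where the naive flasks are equal. Most genes lie in the lower right field, above naive 2 and below naive 1, while ELOVL6, TM7SF2 and LSS lie above naive 1 and FASN, CYP51A1 and FADS1 lie below naive 2.

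The arrays themselves were alike in most respects. Between 27922 and 28244 probes were well above background, between 457 and 565 were saturated, and the 75th percentile of the signal was 1079 and 899 in the naive flasks and 1048 and 842 in the resistant flasks. Over 165 probes with repeated spots the median SD between spots was between 0.0358 and 0.0736 on the log2 scale, a measure of noise within an array and not between flasks. The exception was the added spike-in RNA: over 5 usable controls of 10, its normalised median was 1.31 lower in naive 1 than in naive 2 (difference -1.31), and the resistant arrays differed from naive 2 by -0.27 and -0.31. Scaled to the spike-ins, all genes shifted in naive 1 against naive 2 by a median of 1.28, and the median of the members was 2.33. This scale moves all genes of an array by the same amount. The part of the spike-in difference in the naive gap was not tested.

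Further lists covered the surroundings of the pathway, and 71 of their genes were tested. Of these, 2 were called between the lines, 1 higher and 1 lower in the resistant clone, against 6.29% of all genes. The methods' t-test picked 12 of the 71 at an unadjusted p below 0.05 (17.7% of all genes) and 0 after Benjamini-Hochberg adjustment. The machinery that activates and degrades the SREBP system, with the partner factors NF-Y and SP1, gave 0 of 19 called by limma and 2 at an unadjusted p below 0.05 (21.1% of all genes), and a median naive difference of 0.10. In that list PGRMC1, a haem-binding membrane protein, had a naive difference of 1.48 and SAR1B, a GTPase of COPII vesicles, one of 1.05, followed by ERLIN1 at 0.85. SEC24C had no naive 2 value because its spot was marked as an outlier there. Other sterol and isoprenoid genes gave 0 of 11 called by limma and 2 at an unadjusted p below 0.05, and a median naive difference of 0.37. ERG28, a scaffold of C4 demethylation, had a naive difference of 0.94 and COQ2, of ubiquinone synthesis, one of 0.71.

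Other fatty acid and glycerolipid genes gave 0 of 22 called by limma (6.29% of all genes) and 4 at an unadjusted p below 0.05 (21.1% of all genes), and a median naive difference of 0.22. ACSL6, an acyl-CoA synthetase, read -2.17 in naive 1, -5.90 in naive 2 and -3.90 and -3.93 in the resistant flasks. Its naive difference of 3.73 exceeded that of every member of the set. The probe was well above background on all 4 arrays, but its naive 2 level was low, so the size of this difference is approximate. ELOVL3, an elongase, had a naive difference of 1.33 and SLC25A1, the citrate carrier of mitochondria, one of 1.14.

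Sterol transport and storage held the single gene called higher. NPC2, which takes cholesterol out of lysosomes, read 2.62 and 2.01 in the naive flasks and 4.07 and 4.09 in the resistant flasks, a fitted difference of 1.76 (SE 0.29, adjusted p = 0.0326 by limma). The call was lost without either resistant flask, with normexp background correction, on the spike-in scale and with no filter on dim probes. The median naive difference of the 12 genes tested was 0.05. VLDLR, a lipoprotein receptor, ran against the members with -0.27 in naive 1, 1.91 in naive 2 and 1.86 and 1.71 in the resistant flasks. NPC2 itself and STAR, a carrier of cholesterol into mitochondria, had naive differences of 0.62 and 0.59.

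The LXR axis, the arm that exports cholesterol when sterol is high, held the single gene called lower. ABCA1, the cholesterol exporter, read -0.23 and 0.28 in the naive flasks and -3.52 and -3.84 in the resistant flasks, a fitted difference of -3.70 (SE 0.28, adjusted p = 0.00303 by limma). Among the limma settings the call was lost with normexp background correction only. Its naive flasks differed by -0.51 and the list's by a median of -0.42. In the same list LPCAT3, a phospholipid acyltransferase, had a naive difference of 1.06 and MYLIP, a ubiquitin ligase that acts on lipoprotein receptors, one of -0.73.

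**Figure D4:**
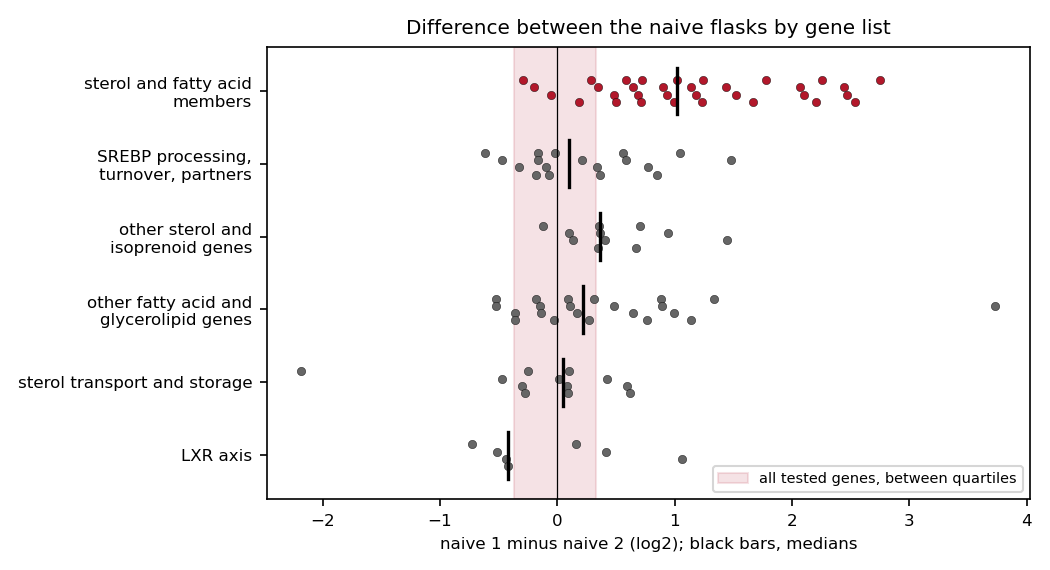
Log2 difference naive 1 minus naive 2 for the 33 members and for the genes of the other lists, 1 point per gene, with black bars at the medians and a band between the quartiles of all named genes tested. The members' median is 1.02, and those of the other lists run from -0.42 for the LXR axis to 0.37 for other sterol and isoprenoid genes.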

How the data were processed

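RNA of 2 flasks each of naive and ATO resistant NB4 cells was labelled with Cy3 and hybridised to 1-colour Agilent whole genome arrays. The authors deposited the output of Feature Extraction 10.5.1.1, whose processed signal is a background-subtracted intensity on a linear scale, and a log2 table made in GeneSpring GX with a 75th percentile shift. Probe positions are those of hg19 in the file headers. Here control and outlier spots were dropped, the log2 of the intensity was averaged over the spots of a probe, and each array was lowered by its 75th percentile. Set against the deposited table, each array had a Pearson's r of 0.9998 or more over its probes. Arrays have no read depth, and their number limits the precision.

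Tests covered the probes that both arrays of a line, or of both lines, marked as well above background (28221 probes, 13736 named genes). The comparison of the lines used limma 3.58.1 (lmFit, eBayes) in R 4.3.3, and adjusted p-values are Benjamini-Hochberg values over all tested probes. A probe was called at an adjusted p below 0.05 and at least 2-fold. The tested probe of highest mean level stands for a gene. The members, the further lists and the tests were chosen with earlier results of these data known. Every member could be named, and from each further list the called genes and the 3 with the largest naive difference; beyond these, SEC24C was named for its missing value. The values of 1 gene of these lists are not reported here. Marker lists held 7 promyelocyte, 3 T cell, 3 B cell, 3 erythroid, 4 stromal and 3 monocyte genes; the erythroid markers summed to -1.45, -0.97, -0.69 and -0.99 in naive 1, naive 2, resistant 1 and resistant 2. The 21 alternatives tried changed the background correction, normalisation, filters, test, threshold, probe choice, flasks or block. The sources do not say that replicate numbers pair flasks of the lines.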

Additional observations from a re-analysis of the deposited data

How the results depend on the processing

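In the alternatives that keep both naive flasks, the median naive difference of the members lay between 0.95 and 1.18, except on the spike-in scale. There it was 2.33 and 33 genes were at least 2-fold apart. The median over all genes was 1.28 on that scale, itself past 2-fold, so this count is no result about the members. Members called between the lines stayed at 0 except as follows. There were 5 to 14 without a naive flask and 0 without a resistant flask, 4 at least 2-fold apart with no test (CYP51A1, FADS1, FASN and HMGCS1), and 1 when the probes of a gene were averaged (ELOVL6, 1.03, adjusted p = 0.0437 by limma, in a setting that called 505 of all 13736 genes higher and 605 lower). The members' median difference between lines was 0.56 without naive 1 and -0.38 without naive 2. On the spike-in scale it was -0.18, and SCAP at -0.20 and PMVK at -0.0713 changed sign. Over all probes, limma called 1487, and the count was 727 to 4525 with a flask left out (3724 without naive 1, 4525 without naive 2, 742 without resistant 1, 727 without resistant 2), 760 with probes above background on all arrays, 3463 at least 2-fold with no test, 0 with normexp (929 at an unadjusted p below 0.05) and 0 with the adjusted t-test of the methods (4138 at an unadjusted p below 0.05). From the further lists, 2 genes were called, against 0 with normexp, 1 on the spike-in scale, 1 with no filter on dim probes, 5 at least 2-fold with no test, 0 with the adjusted t-test and 1 to 11 with a flask left out. ABCA1 alone was called without either resistant flask. With replicate number as a block limma called 1375 probes and 0 members; same-numbered flasks deviated together with r = 0.12 over 2 pairs, a shared number only. The general shift between lines was over 0.1 in 3 settings, 0.12 with scale normalisation, 0.10 with normexp and -0.36 on the spike-in scale; between the naive flasks it was 0.22 with normexp, -0.10 with normexp after high local backgrounds were reset, 0.13 with a median shift and 1.28 on the spike-in scale. The causes of these changes were not tested, beyond the smaller number of flasks or probes in those that leave some out.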
